A study of Mus musculus with 44 samples.

Results

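The m6A immunoprecipitation (IP) of wild-type skeletal stem cells (SSC) was compared with its input RNA, gene by gene, in 2 pairs of libraries joined by their replicate number. SSC are the cells at the top of the skeletal hierarchy, from which cartilage, bone and stroma derive. These 4 libraries, 2 of IP RNA and 2 of input RNA, were taken from a series of 44 that covers 8 sorted skeletal populations. The cells came from long bones of C57Bl6 mice at postnatal day 3, without treatment, and were sorted as CD45-, Ter119-, Tie2-, CD51+, Thy1-, 6C3-, CD105- and CD200+. The labels give the 4 libraries as wild type. The study's control for its Mettl3 deletion was the Mettl3 fl/fl mouse without Cre, and whether these 4 libraries carry that floxed allele is not stated. Mice were taken from at least 3 litters regardless of sex. The IP was run on intact total RNA, and reads from anywhere on a gene were counted together, so each ratio describes whole transcripts and places no methylated site.

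N6-methyladenosine (m6A) is the most abundant internal mark of mammalian mRNA. A complex of METTL3, METTL14 and partners such as WTAP writes it, FTO and ALKBH5 remove it, and proteins of the YTH family bind it and change the splicing, translation or decay of the transcript. The mark lies mostly near stop codons and in long exons, within short contexts of which GGACT is the best known. In stem cells the mark is known for shortening the life of transcripts that encode regulators of cell fate.

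The letters around GGACT are printed here for transcripts that carry the results below, to show how like they look in genes that the IP gained and in genes that it lost. Each run is the GGACT nearest the stop codon with 10 bases on either side, in sense orientation and with the motif in capitals. It was taken from the transcript with the longest coding sequence, with GRCm38 coordinates from GENCODE vM21. Of the 12993 tested genes with a coding transcript, 91.8% held GGACT at least once, so its presence alone describes most genes. The first 5 genes were enriched in the IP.
Foxc1, chr13:31809319-31809343, plus strand, 3′ UTR: ttttattcatGGACTtgtttttaaa
Foxo3, chr10:42196757-42196781, minus strand, coding sequence: aaaccctctcGGACTctctctcagg
Jund, chr8:70700097-70700121, plus strand, 3′ UTR: gcgcatgcgcGGACTagctgcggtg
Klf4, chr4:55527792-55527816, minus strand, 3′ UTR: gaacatgcccGGACTtacaaaatgc
Notch2, chr3:98147817-98147841, plus strand, 3′ UTR: gagtgccccgGGACTctgtccaggc
The other four were depleted.
Junb, chr8:84977259-84977283, minus strand, 3′ UTR: ctcacacactGGACTccggcccgcc
Gdf5, chr2:155941372-155941396, minus strand, 3′ UTR: gatgtgatctGGACTaaagagatca
Col9a2, chr4:121055088-121055112, plus strand, 3′ UTR: ggggcaggggGGACTgaggcttctg
Pkm, chr9:59679033-59679057, plus strand, 3′ UTR: gaggaatgcaGGACTggaaaccctg
The Junb and Jund transcripts, which moved in opposite directions, held 3 and 4 copies. The enriched transcripts of Eid1 and Rps4x held 0.

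The IP libraries held 19439708 and 28440600 counts and the input libraries 32460090 and 29766972. Input replicates resembled each other more (Pearson's r 0.958 over 15780 genes, on log2 CPM, the counts scaled to library size) than IP replicates did (r = 0.843). Genes of the sex chromosomes differed between the pairs and went with the replicate number. Xist, the RNA that coats the inactive X, had 9505 counts in IP 1 and 3778 in input 1 but 1373 in IP 2 and 260 in input 2. Ddx3y, on the Y chromosome, had 64 and 15 counts in pair 1 but 5391 and 4547 in pair 2. Mitochondrially encoded RNA took 1.56% and 2.92% of the IP libraries and 0.428% and 0.609% of the input. The sort could be followed in the input: Cd200 stood at 278 and 140 CPM and Itgav (CD51) at 39.9 and 38.0, while Ptprc (CD45) and Tek (Tie2) had 0 counts in both input libraries. Eng (CD105), a gene of the negative gate, stood at 46.9 and 43.7 CPM, so its mRNA was present.

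The IP moved a large part of the transcriptome in both directions. A gene was called enriched above 1 and depleted below -1 on the log2 scale of IP over input at an unadjusted p below 0.05, the form of rule the study used. Of 15780 genes tested, 1432 (9.07%) were enriched and 2153 (13.6%) were depleted. With the adjusted p in place of the unadjusted one, 937 (5.94%) were enriched and 1307 (8.28%) depleted. Enriched genes together held 23.7% and 27.2% of the counts of the IP libraries against 7.93% and 9.93% of the input. Depleted genes held 11.3% and 8.83% of the IP against 30.6% and 28.1% of the input. The median mean count was 867 for enriched and 811 for depleted genes, against 286 over all genes. There were 9891 coding genes with a mean count of at least 100, of which 1241 were enriched and 1928 depleted. The shares of all genes given beside the lists below include poorly counted genes. Over all genes the log2 ratios of the pairs correlated at r = 0.430, a description across genes, which are not replicates. Calls depended on the libraries used: without input replicate 1, 783 genes were enriched and 1007 depleted, and without IP replicate 1, 2835 were enriched and 4769 depleted.

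**Figure D1:**
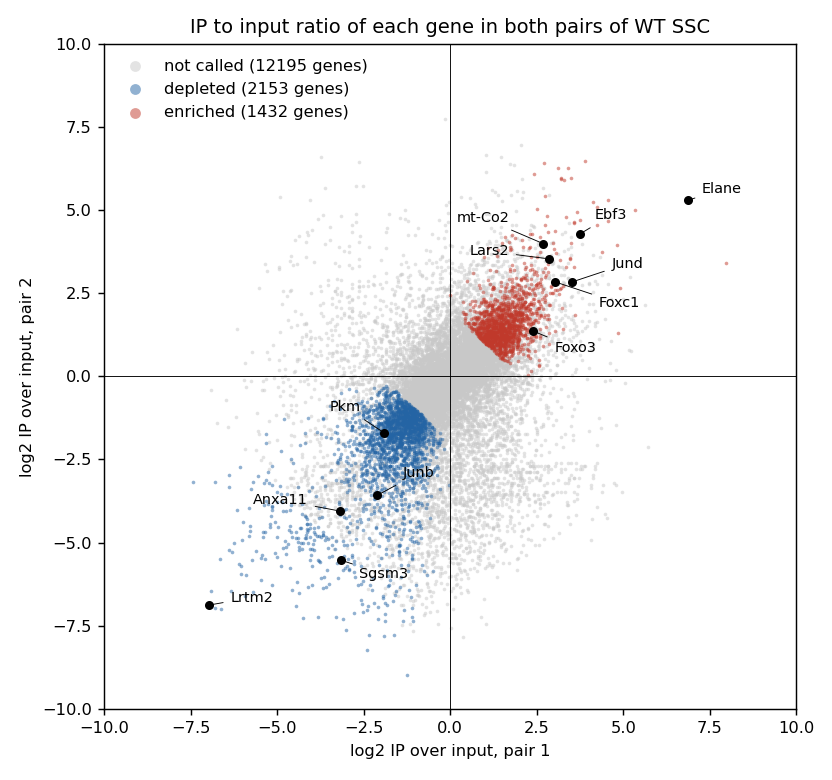
Each point is a gene, with its log2 IP over input ratio in pair 1 on the horizontal axis and in pair 2 on the vertical axis; colours mark enriched, depleted and other genes of the fit over both pairs. Of the 1432 enriched genes, 1431 lie to the upper right, and the 2153 depleted genes lie to the lower left, while many genes without a call have ratios of opposite sign in the pairs.

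The largest enrichments are given for protein-coding genes with a mean count of at least 100 and over 10 counts in each input library. They included transcription regulators and genes of mitochondria. Ebf3, a transcription factor of mesenchyme and neurons, stood at 12.5 and 13.8 CPM in the IP against 0.860 and 0.633 in the input, a log2 ratio of 4.14 ± 0.84 (SE) with adjusted p = 0.0141. Eid1, an inhibitor of the EP300 acetyltransferase, was far better counted, with 128 and 197 CPM in the IP against 14.2 and 17.4 (log2 3.34 ± 0.27, adjusted p = 0.00178). Jund, a subunit of the AP-1 factor, went from 19.3 and 24.8 CPM in the input to 220 and 177 in the IP (log2 3.17 ± 0.28, adjusted p = 0.00197). In all 3 genes the IP libraries lay many times above both input libraries. Lars2, the mitochondrial leucyl-tRNA synthetase, stood at 1357 and 3350 CPM in the IP and at 189 and 289 in the input (log2 3.19 ± 0.24, adjusted p = 0.00178). The mitochondrially encoded mt-Co2, a cytochrome c oxidase subunit, had a log2 ratio of 3.37 ± 0.54 (adjusted p = 0.00593). Hsd17b11, a steroid dehydrogenase of lipid droplets, reached 3.44 ± 0.79 (adjusted p = 0.0218), Plekha3, a lipid-binding protein of the Golgi, 3.06 ± 0.57 (adjusted p = 0.0102) and Cacna1d, a calcium channel subunit, 3.05 ± 0.84 (adjusted p = 0.0438). The other four of the 12, Sh3rf3, Tusc1, Vps13c and Hlf, had log2 ratios of 3.01 to 3.22 and were called at the unadjusted p only, with adjusted p from 0.0803 to 0.0922 and input counts of 14 to 38.

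The 12 strongest losses, ranked with the same limit on the mean count and over 10 counts in each IP library, included genes of transport, lipid signalling and immunity. Several of them had low IP counts. Anxa11, a calcium-dependent membrane-binding annexin, was the best counted of them, with 91.1 and 94.1 CPM in the input against 9.89 and 5.61 in the IP (log2 -3.63 ± 0.36, adjusted p = 0.00249). Sgsm3, a regulator of small GTPases, had the lowest ratio, at 4.07 and 0.670 CPM in the IP against 36.6 and 34.4 (log2 -4.34 ± 0.70, adjusted p = 0.00616). The IP libraries of Sgsm3 differed widely from each other, and both lay below the input. Slc39a7, a zinc transporter, stood at 0.552 and 1.34 CPM in the IP against 18.8 and 13.8 (log2 -4.17 ± 0.82, adjusted p = 0.0123). For Slc16a3, the lactate exporter MCT4, the IP held 8.48 and 0.811 CPM against 61.6 and 37.8 (log2 -4.09 ± 0.67, adjusted p = 0.00647). The sphingosine kinase gene Sphk2 was even across replicates, at 1.20 and 1.16 CPM in the IP and 15.9 and 18.6 in the input (log2 -3.86 ± 0.70, adjusted p = 0.0092). Tradd, an adaptor of TNF receptors, and Tap2, a peptide transporter of antigen presentation, had log2 ratios of -3.86 ± 0.92 and -3.77 ± 0.90. The others, Dtx2, Ppp2r5b, N4bp3, Tk2 and Slc27a3, lay between -3.70 and -3.60. All 12 had an adjusted p below 0.05, from 0.00249 to 0.0438.

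**Figure D2:**
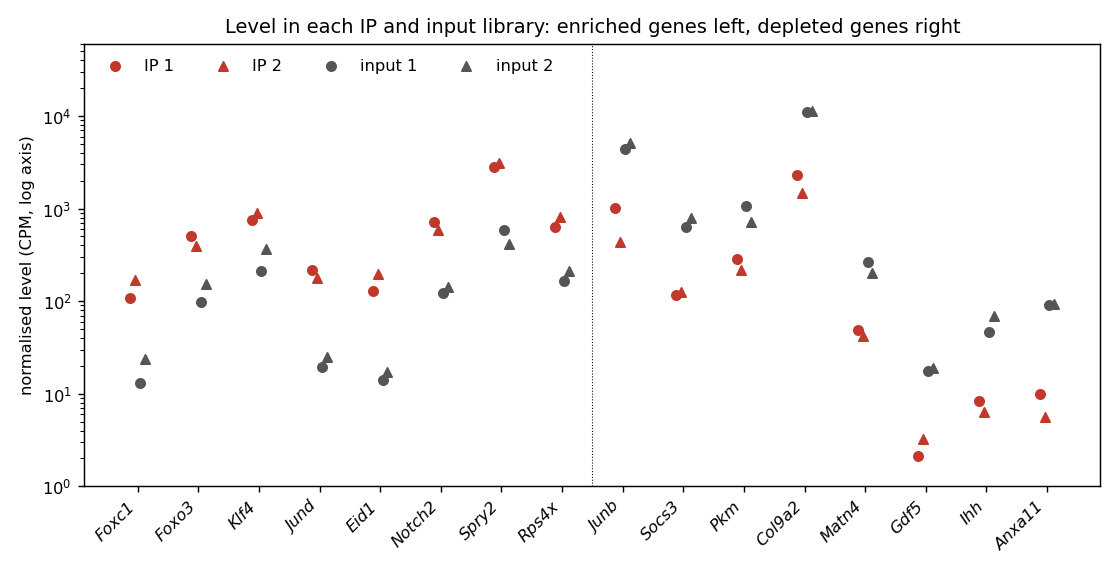
Normalised level in CPM, on a log axis, of 16 genes in each of the 4 libraries, with IP in red, input in grey, pair 1 as circles and pair 2 as triangles. For the 8 genes on the left both IP libraries lie above both input libraries, from 2.95-fold for Klf4 to 10.1-fold for Eid1 in the fit; for the 8 on the right both lie below.

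Genes with hardly any counts on one side are described apart, because they could pass the filter on low counts only through the side where they were high. The totals above include them, and without them 1411 genes were enriched and 2031 depleted of 15218, a choice made after seeing the data. Of 95 tested genes with at most 3 counts in each input library, 21 were enriched, of which 8 were protein coding. Hspb3, a small heat shock protein gene of muscle, had 13 and 266 counts in the IP and 2 in each input library. Capn9, a calpain of the gut, had 8 and 258 counts against 0 and 1. In both, 1 IP library carried nearly all counts. Elane, the elastase of neutrophils, had 167 and 79 counts in the IP and 0 in both inputs, at least 57.1-fold higher when the input was set to 3 counts per library. The unnamed loci Gm37900, Gm38146 and Gm43728 had 12 to 33 counts in IP 1 and 182 to 192 in IP 2. On the other side, 467 tested genes had at most 3 counts in each IP library and 122 of them were depleted, 88 with 0 counts in both IP libraries. Lrtm2, a leucine-rich repeat membrane protein gene, had 288 and 256 counts in the input and 0 in the IP, at least 69.0-fold lower at the floor. Rnf135, Irf7 and Cd38, genes of antiviral and lymphocyte biology, also had 0 IP counts, with input counts from 192 to 279 and falls of at least 66.4-, 64.3- and 59.2-fold. Wnt7b, a Wnt ligand of skeletal development, had 2 and 0 counts in the IP against 279 and 195, and Nfkbil1 had 3 and 0 against 246 and 167.

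Foxc1 and Foxo3, forkhead factors that act in stem cell maintenance, were both enriched. Foxc1 (ENSMUSG00000050295, chr13:31806633-31812476, a gene of 1 exon) stood at 108 and 171 CPM in the IP against 13.0 and 23.8 in the input. Its log2 ratio was 3.04 in pair 1 and 2.84 in pair 2, with a fitted value of 2.94 ± 0.27 and adjusted p = 0.00214. Foxo3 (ENSMUSG00000048756, chr10:42181841-42276755) stood at 504 and 398 CPM against 97.0 and 154, which gave 2.38 and 1.37 in the pairs and 1.87 ± 0.28 in the fit (adjusted p = 0.00488). Neither gene had an IP library at or below an input library. Of the 30 tested forkhead, Klf and Sox genes, 9 (30.0%) were enriched and 5 (16.7%) depleted, with a median log2 ratio of 0.72 against -0.22 over all genes. Foxd1 had 2.13 ± 0.70 (adjusted p = 0.0762), called at the unadjusted p only, and Klf15, a factor of glucocorticoid and metabolic responses, was depleted at -2.58 ± 0.50 (adjusted p = 0.0115). Transcription factors of limb mesenchyme held 10 enriched and 3 depleted genes of 47, with a median of 0.51. Twist1, which keeps mesenchyme undifferentiated, was enriched at 2.26 ± 0.46 (adjusted p = 0.0142), and Nfia at 1.70 ± 0.22 (adjusted p = 0.0034). Msx1, a homeobox factor of limb buds, was depleted at -2.21 ± 0.56, with 30.1 CPM in IP 1 but 4.66 in IP 2. Of 28 Hox genes, which set position along the limb, 2 (7.14%) were enriched (Hoxd8 and Hoxc8) and 0 depleted. Over all genes these shares were 9.07% and 13.6%. The median mean count of the Hox genes was 104, against 286 over all genes. Zinc finger protein genes lay near the shares of all genes, with 21 (6.54%) enriched and 45 (14%) depleted of 321 and a median of -0.44. Of the 45, 4 had at most 3 counts in each IP library and 8 passed the adjusted p.

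Of 15 genes that the study itself followed in SSC, 12 were enriched and 0 depleted. The study chose them on these samples, so the count is not independent evidence of direction. Cdk6, a kinase that starts the cell cycle, was enriched at 1.72 ± 0.24 (adjusted p = 0.00433), Klf4, a pluripotency factor, at 1.56 ± 0.22 (adjusted p = 0.00441) and Id2, an inhibitor of differentiation factors, at 1.47 ± 0.21 (adjusted p = 0.00434). The mineralisation genes Bglap and Mgp reached 1.54 ± 0.32 and 1.43 ± 0.19, and the insulin-responsive factor Foxo1 reached 1.35 ± 0.25. The ubiquitin pathway genes Fem1b and Ube2h reached 1.20 ± 0.30 (adjusted p = 0.0302) and 1.31 ± 0.26 (adjusted p = 0.0134). Fem1b stood at 68.7 and 70.4 CPM in the IP against 35.7 and 25.5 in the input. Spopl at 1.46 ± 0.62 and the BMP receptor gene Bmpr1a at 1.06 ± 0.32 passed the unadjusted p only (adjusted p = 0.163 and 0.0591). Chst11, a chondroitin sulfotransferase, had 0.93 ± 0.23, below the fold limit. Gli1, the Hedgehog effector, had -0.25 ± 0.39 and Mettl3 itself -1.04 ± 0.57 (adjusted p = 0.277), and neither was called.

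Many genes of chromatin regulation were called, mostly as enriched. Of 45 chromatin remodellers, 19 (42.2%, against 9.07% of all genes) were enriched and 1 depleted, with a median of 0.94. Smarca5, the ISWI motor, rose from 41.8 and 36.5 CPM to 116 and 144 (log2 1.73 ± 0.27, adjusted p = 0.00545). Ncor1, a corepressor of nuclear receptors, was enriched at 1.56 ± 0.27 (adjusted p = 0.00823), whereas Smarce1, a BAF complex subunit, was depleted at -1.60 ± 0.26 (adjusted p = 0.00626). Histone lysine methyltransferases and demethylases held 16 (37.2%) enriched and 6 depleted genes of 43. Kdm6b, the H3K27 demethylase, reached 4211 and 1921 CPM in the IP from 811 and 907 in the input (log2 1.73 ± 0.30, adjusted p = 0.00776). Setd1a and Setd1b, which methylate H3K4, were enriched at 2.06 ± 0.57 and 1.83 ± 0.49, and Suv39h1, which methylates H3K9, had -2.79 ± 0.95 at the unadjusted p only (adjusted p = 0.0882). Ubiquitin ligase genes held 20 (29.9%) enriched and 11 (16.4%) depleted of 67, the latter share near the 13.6% of all genes. Birc6, a giant ligase that blocks apoptosis, was enriched at 2.40 ± 0.23 (adjusted p = 0.0023) and Ubr3 at 2.2 ± 0.36 (adjusted p = 0.00626), and Kctd10, a cullin adaptor, was depleted at -2.79 ± 0.30 (adjusted p = 0.00281).

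Each signalling list held genes called in both directions, and the shares of all genes, 9.07% enriched and 13.6% depleted, stand beside these counts. The depleted shares, from 13.0% for BMP and TGF-β to 20% for Hedgehog, were near or somewhat above that of all genes. The Hedgehog list was better counted than all genes, with a median mean count of 803 against 286. Of the coding genes with a mean count of at least 100, 1928 of 9891 were depleted. In the Notch list, the receptor Notch2 rose from 121 and 141 CPM to 713 and 584 (log2 2.30 ± 0.23, adjusted p = 0.00249) and its ligand Jag1 from 13.4 and 9.80 to 64.6 and 55.7 (log2 2.39 ± 0.34, adjusted p = 0.00437). The Notch list held 3 enriched and 4 depleted genes of 23. In the Wnt list, 9 genes were enriched and 7 depleted of 49, with Wnt7b, described above, among the 7. Lgr4, the R-spondin receptor, was enriched at 2.49 ± 0.27 (adjusted p = 0.00281), Fzd8, a Wnt receptor, at 2.27 ± 0.53 (adjusted p = 0.0234) and Znrf3, a ligase that removes Wnt receptors, at 1.86 ± 0.23 (adjusted p = 0.00301). In the BMP and TGF-β list, 13 were enriched and 7 depleted of 54. Smad4, the shared mediator, and Skil, a SMAD corepressor, were enriched at 1.96 ± 0.30 and 2.16 ± 0.22. The ligand genes Gdf5, which marks joints, and Tgfb3 were depleted at -2.81 ± 0.62 (adjusted p = 0.019) and -1.96 ± 0.25 (adjusted p = 0.00326). In the FGF and IGF list, 9 were enriched and 4 depleted of 28. Spry2, a feedback inhibitor of FGF signalling, stood at 2780 and 3092 CPM in the IP against 592 and 417 (log2 2.56 ± 0.23, adjusted p = 0.00191), and Spred1, a related inhibitor, reached 1.87 ± 0.29. Fgf18, a growth plate ligand, was also enriched (2.03 ± 0.44, adjusted p = 0.0171). In the Hedgehog list, 4 were enriched and 5 depleted of 25. Ihh, the ligand of the growth plate, had 8.33 and 6.31 CPM in the IP against 46.4 and 68.6 (log2 -2.96 ± 0.41, adjusted p = 0.00396), and Spop, a ligase adaptor that acts on GLI proteins, had -1.57 ± 0.27 (adjusted p = 0.00741).

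**Figure D3:**
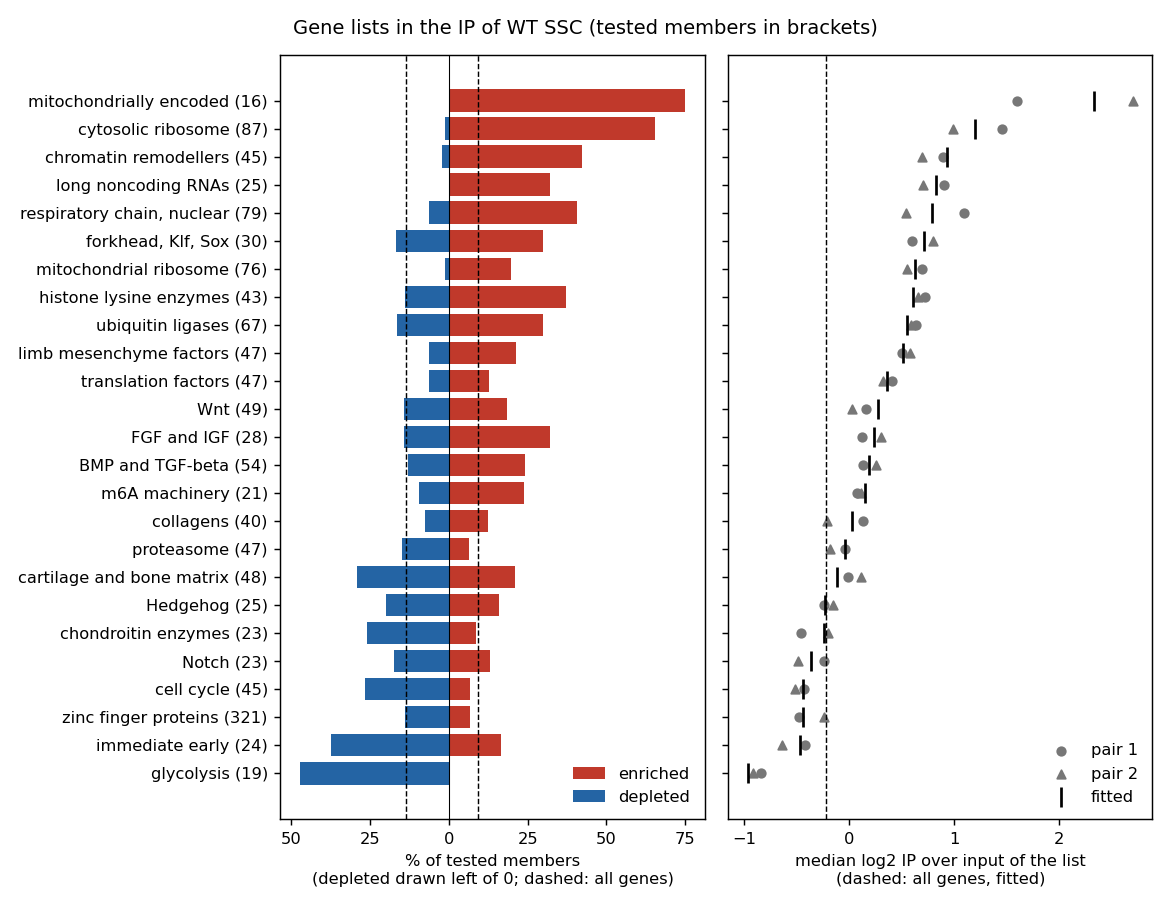
Left, percent of the tested members of 25 gene lists that were enriched (red, right of 0) or depleted (blue, left of 0), with dashed lines at 9.07% and 13.6% for all genes. Right, the median log2 IP over input of each list in pair 1, in pair 2 and in the fit, with the dashed line at -0.22 for all genes; mitochondrially encoded and cytosolic ribosomal genes lie highest and glycolysis lowest.

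Mitochondrially encoded RNA and ribosomal protein genes had high ratios nearly throughout. Of 16 tested mitochondrially encoded genes, 12 (75%) were enriched and 0 depleted, with a median of 2.34 and a lowest value of 1.34. Over all genes the shares were 9.07% and 13.6%. mt-Rnr1, the small ribosomal RNA, stood at 577 and 719 CPM in the IP against 76.2 and 109 (log2 2.82 ± 0.22, adjusted p = 0.00178) and mt-Nd2 at 391 and 844 against 75.2 and 89.8 (log2 2.81 ± 0.27, adjusted p = 0.00249). Of 87 cytosolic ribosomal protein genes, 57 (65.5%) were enriched and 1 was depleted, with a median of 1.20 (1.46 in pair 1 and 0.99 in pair 2). Rps4x rose from 167 and 211 CPM to 628 and 819 (log2 1.94 ± 0.21, adjusted p = 0.0027). The list's highest value, 2.70 ± 1.06, belonged to Rpl6l, a copy of Rpl6 whose reads may be split between near-identical loci. Nuclear genes of the respiratory chain held 32 (40.5%) enriched and 5 (6.33%) depleted of 79, and their median was 1.10 in pair 1 and 0.54 in pair 2. Small subunits such as Ndufb4 (1.74 ± 0.26) and Cox5a (1.61 ± 0.27) were enriched, while Sdha, the flavoprotein of complex II, and Uqcrc1, a core protein of complex III, were depleted at -2.20 ± 0.27 and -1.63 ± 0.32. Mitochondrial ribosomal protein genes held 15 (19.7%) enriched and 1 (1.32%) depleted of 76. Translation factors held 6 enriched and 3 depleted of 47, with Eif2s2 at 1.35 ± 0.20 and Eif4h at -1.71 ± 0.22. In the proteasome list 3 were enriched and 7 depleted of 47, near the background shares, with the activator Psme4 at 1.76 ± 0.34 and the subunit Psmd3 at -2.14 ± 0.38.

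Of the lists examined, glycolysis had the largest share of depleted genes. Of 19 genes, 9 (47.4%) were depleted and 0 enriched, with a median of -0.97 (-0.84 in pair 1 and -0.92 in pair 2). Pfkl, a phosphofructokinase, fell from 269 and 159 CPM to 49.6 and 10.02 (log2 -3.20 ± 0.39, adjusted p = 0.00301). Pkm, the last enzyme of the pathway, fell from 1066 and 709 CPM to 283 and 219 (log2 -1.81 ± 0.21, adjusted p = 0.00285), and Ldha, which makes lactate, from 1055 and 825 to 408 and 320 (log2 -1.37 ± 0.20, adjusted p = 0.00443). Immediate early genes, which rise within minutes of cell stress or growth signals, split: 4 (16.7%) were enriched and 9 (37.5%) depleted of 24. Jund was enriched, as above, whereas its AP-1 partner Junb fell from 4420 and 5164 CPM to 1026 and 434 (log2 -2.84 ± 0.33, adjusted p = 0.003). Socs3, a feedback inhibitor of cytokine signalling, fell from 633 and 791 CPM to 117 and 125 (log2 -2.55 ± 0.22, adjusted p = 0.00178), and Ier2 was depleted at -2.29 ± 0.32 (adjusted p = 0.00407). Cell cycle genes held 3 (6.67%) enriched and 12 (26.7%) depleted of 45, against 13.6% depleted of all genes. At the adjusted p, 4 of the 45 were depleted, against 8.28% of all genes. Of the 12, 1 had at most 3 counts in each IP library, which leaves 11 of 44 without that gene. Cdkn1b, an inhibitor that holds cells out of the cycle, was enriched at 2.15 ± 0.40 (adjusted p = 0.0105), and the replication helicase gene Mcm6 was depleted at -1.90 ± 0.35 (adjusted p = 0.00943). Aurkb and Mcm2 had -3.49 ± 1.25 and -1.98 ± 0.72 and passed the unadjusted p only (adjusted p = 0.103 and 0.107).

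Matrix genes, the most abundant products of these cells, were divided. Cartilage and bone matrix genes held 10 (20.8%) enriched and 14 (29.2%) depleted of 48, and the sign of their median differed between the pairs (-0.02 and 0.11). Loxl1, a collagen cross-linking enzyme, fell from 262 and 264 CPM to 57.8 and 31.3 (log2 -2.63 ± 0.29, adjusted p = 0.00281), and Matn4, a cartilage matrilin, from 266 and 202 to 49.0 and 42.3 (log2 -2.35 ± 0.24, adjusted p = 0.00249). Vcan, a large proteoglycan of early mesenchyme, rose from 4.11 and 4.93 CPM to 19.1 and 26.3 (log2 2.31 ± 0.52, adjusted p = 0.0198). Collagen genes held 5 (12.5%) enriched and 3 (7.5%) depleted of 40, against 9.07% and 13.6% of all genes. Col9a2, which coats cartilage fibrils, fell from 11169 and 11204 CPM to 2328 and 1475 (log2 -2.59 ± 0.21, adjusted p = 0.00178), whereas Col11a1, which nucleates those fibrils, rose from 3052 and 3928 to 8688 and 9833 (log2 1.42 ± 0.17, adjusted p = 0.003). Both fibril genes were read at high depth in every library and moved beyond their replicate spread in opposite directions. Chondroitin sulfate enzymes held 2 enriched and 6 (26.1%) depleted genes of 23, against 13.6% depleted of all genes. Without 1 gene that had at most 3 counts in each IP library, 5 of 22 (22.7%) were depleted. The median mean count of the list was 1410, against 286 over all genes. Of the coding genes with a mean count of at least 100, 1928 of 9891 were depleted. The initiating enzyme gene Xylt1 was enriched at 2.17 ± 0.27 (adjusted p = 0.0032) and Chsy1, a polymerase, at 1.68 ± 0.32 (adjusted p = 0.0115), while Chpf2, a polymerising factor, was depleted at -2.71 ± 0.29 (adjusted p = 0.0027). Among 7 genes of hypertrophic chondrocytes, Col10a1 was enriched at 1.12 ± 0.21 (adjusted p = 0.011) and Ihh, Sp7 and Mmp13 were depleted. Clustered histone genes, whose mRNAs largely lack poly(A) tails, held 0 enriched and 0 depleted of 39. They were poorly counted, with a median mean count of 52.5 against 286 over all genes. Their median log2 ratio was 0.35, against -0.22 over all genes.

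Of 21 transcripts of the m6A machinery, 5 (23.8%) were enriched and 2 (9.52%) depleted. Over all genes these shares were 9.07% and 13.6%, so the depleted share was not above that of all genes. The writer subunits Wtap and Rbm15 were enriched at 1.96 ± 0.36 (adjusted p = 0.00941) and 1.94 ± 0.28 (adjusted p = 0.00443), and Rbm15b at 1.45 ± 0.61 by the unadjusted p only (adjusted p = 0.157). The reader genes Ythdf1 and Ythdc1 were enriched at 1.51 ± 0.30 (adjusted p = 0.0134) and 1.02 ± 0.28 (adjusted p = 0.0433), whereas the reader gene Ythdf3 and the eraser gene Fto were depleted at -1.04 ± 0.26 (adjusted p = 0.0306) and -1.26 ± 0.26 (adjusted p = 0.0141). Ythdf2 (-0.73 ± 0.23), Alkbh5 (0.49 ± 0.27), Mettl14 (0.59 ± 0.62) and Mettl16 (-0.27 ± 0.39) were not called, and neither were Zc3h13, Cbll1, Ythdc2, Hnrnpc, Hnrnpa2b1, Prrc2a and the Igf2bp genes, which lay between -2.77 and 0.44. Long noncoding RNAs held 8 (32%) enriched and 0 depleted of 25, with a median of 0.83 against -0.22 over all genes. Xist was enriched in each pair, at 1.99 and 2.47, although its level differed between pairs in both IP and input (fitted 2.23 ± 0.25, adjusted p = 0.00281). H19, an imprinted RNA of fetal tissue, rose from 1034 and 1947 CPM to 4158 and 5589 (log2 1.76 ± 0.20, adjusted p = 0.00281), and Kcnq1ot1, which silences an imprinted cluster, was enriched at 1.74 ± 0.22 (adjusted p = 0.00337).

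Both ends of the length range of transcripts were enriched and the middle was depleted. Lengths are those of the transcript with the longest coding sequence, which need not be the longest transcript of its gene. Under 1000 bases, 205 of 826 genes (24.8%) were enriched and 8 (0.969%) depleted. Between 2000 and 2999 bases, 133 of 2974 (4.47%) were enriched and 802 (27.0%) depleted. At 8000 bases or more, 165 of 648 (25.5%) were enriched and 15 (2.31%) depleted. The median log2 ratios of these 3 bins were 0.80, -0.88 and 0.64. Without the ribosomal, respiratory chain, proteasome and histone lists, 130 of 671 short-transcript genes (19.4%) were still enriched. Genes whose transcript used here had 1 exon made up 3.82% of enriched genes (48 of 1255), 1.35% of depleted genes (28 of 2073) and 3.00% of all 12993. Foxc1, Jund and Eid1 were among them, and so was the depleted Junb. The median 3′ UTR was 1261 bases long in enriched, 835 in depleted and 944 in all genes. The transcripts used can carry little or no 3′ UTR, as in Birc6 with 0 bases.

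GGACT was not denser in the enriched transcripts. It was found in 87.8% of enriched, 95.1% of depleted and 91.8% of all coding transcripts, searched on the sense strand, with medians of 0.942, 1.17 and 1.06 per 1000 bases. Its reverse complement AGTCC followed the same order, with 0.871, 0.949 and 0.896 per 1000 bases. GC content also went with the classes, at medians of 48.0% in enriched, 54.0% in depleted and 50.7% in all genes. GAACT had medians of 1.08, 1.00 and 1.05. Enriched transcripts held fewer GGACT per 1000 bases than depleted ones in each of the 6 length bins, from 0.862 against 1.20 between 1000 and 1999 bases to 0.951 against 0.993 at 8000 or more. The part of length and base composition in the ratios was not tested.

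**Figure D4:**
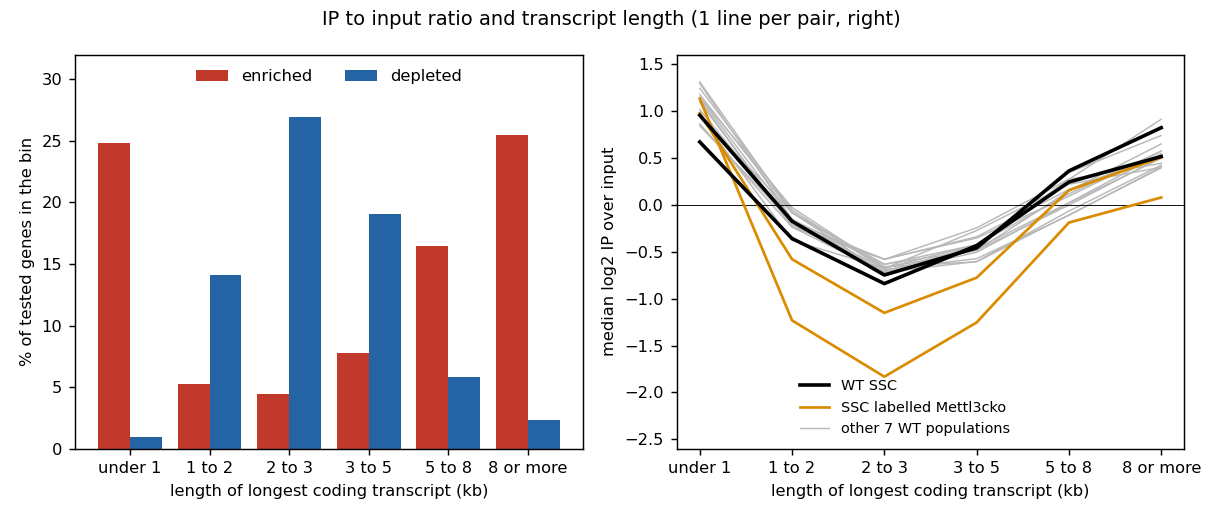
Left, percent of tested genes enriched (red) and depleted (blue) in 6 bins of the length, in kb, of the transcript with the longest coding sequence. Right, median log2 IP over input per bin, 1 line for each pair: WT SSC in black, SSC labelled Mettl3cko in orange and the other 7 WT populations in grey; every line is lowest between 2 and 3 kb and rises to both ends.

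Most genes called in SSC had ratios of the same sign in each other wild-type population, which were sorted from the same tissue and had IP and input libraries of their own. Per population, 82.3% to 94.1% of the 1432 enriched genes were above 0 in both pairs and at most 4.54% below 0 in both. Across populations, 929 of them (64.9%) had a log2 ratio above 0 in both pairs of all 7 other populations, against 13.4% of all genes. Of the 2153 depleted genes, 1615 (75%) were below 0 in every one of those pairs, against 18% of all genes. Foxc1, Klf4, Jund, Id2, Mgp and Rps4x were above 0 in both pairs of all 7, and Junb, Pkm, Col9a2, Gdf5 and Anxa11 below 0. Foxo3 was above 0 in 6, with -0.36 and 0.65 in the pairs of 6C3 cells. Of the 12 enriched genes that the study followed, 6 were above 0 in all 7 populations. Fem1b was above 0 in both pairs of 1 population and below 0 in both of 3, among them PCP with -0.51 and -0.90. Spopl was above 0 in 1 and below 0 in 4. Fgf18 was above 0 in 3 and below 0 in 1, and Foxd1 above 0 in 4 and below 0 in 2. The length pattern was present in each population, with medians of 0.84 to 1.31 below 1000 bases and of -0.73 to -0.58 between 2000 and 2999 bases.

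No gene had a ratio in SSC that differed from the progenitors at an adjusted p below 0.05. The test of the difference between SSC and pre-BCSP passed for 0 of 17852 genes (0%), with 598 at an unadjusted p below 0.05. Between SSC and BCSP it passed for 0 of 17793 (0%), with 708 at the unadjusted p. Of the 1432 genes enriched in SSC, 158 had a higher ratio in SSC than in BCSP at the unadjusted p and 0 a lower one, and against pre-BCSP the numbers were 57 and 4. Since these genes were chosen for a high ratio in SSC, their direction is partly fixed by the choice. For Foxc1 the log2 difference between SSC and BCSP was 0.94 ± 0.38 and that between SSC and pre-BCSP -0.15 ± 0.34. For Foxo3 the values were 0.67 ± 0.34 and 0.50 ± 0.33.

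SSC labelled Mettl3cko gave a further comparison. The study made these mice as Mettl3 fl/fl with Col2a1-Cre, a Cre chosen for skeletal stem and progenitor cells of the growth plate. It reported loss of Mettl3 in them by RT-qPCR and Western blot, and less m6A by dot blot. Its m6A profiles were also reported to have lower levels in SSC, pre-BCSP and BCSP after the deletion. Which libraries carry the label rests on the sample titles, since the genotype field reads wild type for all 44 libraries. Counts over the whole Mettl3 gene do not show a deletion of some of its exons: the input stood at 15.8 and 15.9 CPM in wild-type SSC and at 17 and 18.8 in SSC labelled Mettl3cko. The test of the difference in ratio passed for 0 of 17224 genes (0%), with 1183 at an unadjusted p below 0.05. Of these 1183, 848 had a higher ratio in wild type and 335 a lower one. Of the 1432 genes chosen for a high ratio in wild-type SSC, 55 had a higher ratio there and 93 a lower one at the unadjusted p. The median log2 ratio of the 1432 genes was 1.54 and 1.75 in the pairs labelled Mettl3cko, and 73.2% of them were above 0 in both. These ratios are scaled between libraries, so a loss of m6A shared alike by all transcripts would not show in them. They are not the measure of the dot blot. Over all genes tested the medians in the pairs labelled Mettl3cko were -0.53 and -0.97, lower than in any wild-type pair. The genes tested were those that passed the filter in wild-type SSC. Fewer genes were detected in the IP libraries labelled Mettl3cko, 13868 and 12685, than in those of wild-type SSC, 18262 and 16250. The part of this difference in the ratios was not tested. For Foxc1 the pairs labelled Mettl3cko had 4.33 and 3.83, and the difference, wild type minus Mettl3cko, was -1.19 ± 0.50 (adjusted p = 0.715). For Foxo3 it was -0.58 ± 0.44 (adjusted p = 0.845).

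**Figure D5:**
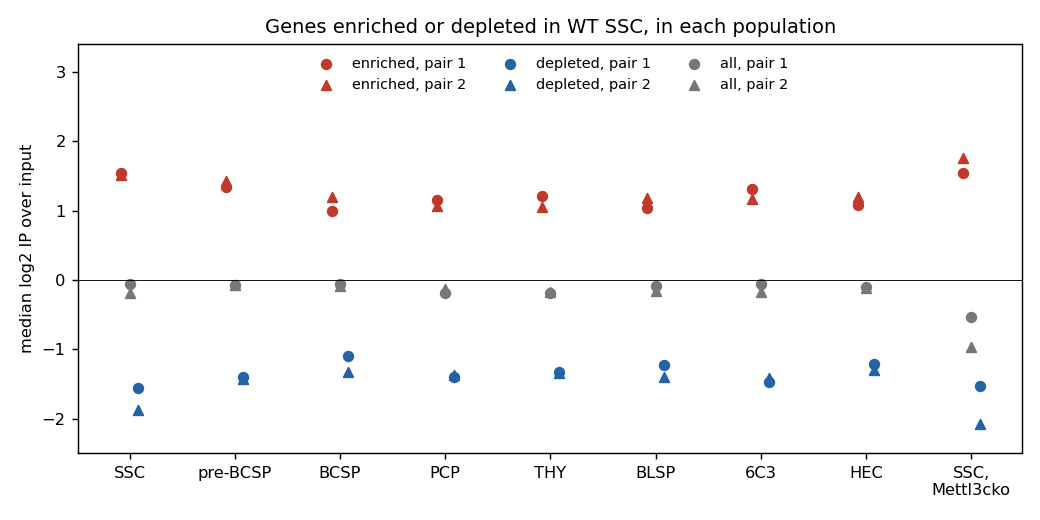
Median log2 IP over input of the genes enriched (red) or depleted (blue) in WT SSC, and of all genes (grey), in each population, with pair 1 as circles and pair 2 as triangles. The medians of the enriched genes lie between 0.99 and 1.75 outside WT SSC, and those of the depleted genes between -2.07 and -1.09.

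Markers of other cells were low, and some were higher in the IP. Of 15 blood markers, 10 were tested and 1, S100a8 of neutrophils, was called (261 and 57 counts in the IP, 82 and 2 in the input, adjusted p = 0.0941). Mpo, a neutrophil gene noticed after its values were seen, had 361 and 253 counts in the IP against 0 and 23. Elane, S100a8 and Mpo, all neutrophil genes, thus had higher counts in the IP than in the input of the same pair. Other blood markers went the other way: Hbb-bs, a globin gene, had 1 and 12 counts in the IP against 15 and 25, and the list's median log2 ratio was 0.07 in pair 1 and -0.14 in pair 2. The summed level of the tested blood markers was 34.4 and 25.8 CPM in the IP and 17 and 14.6 in the input. Cd79a, a B cell gene also noticed after its values were seen, made up most of that sum in IP 2, with 495 counts. Of 12 endothelial markers, 7 were tested and 0 called, and Tek, Cdh5 and Emcn had 0 counts in all 4 libraries. Among the lists of osteoclast and muscle markers, with 4 and 5 tested genes, 0 were called. Thy1, a gene of the negative gate, had 41 and 0 counts in the IP against 4 and 11, and Enpep (6C3) had 3 and 2 against 114 and 92. The part of these cells in the results above was not tested.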

How the data were processed

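The authors made input libraries and m6A antibody pulldowns (SLIM-seq) from total RNA of sorted SSC. Both were copied with a Smart-seq2-based protocol, cut with Tn5 and sequenced. The authors trimmed reads with fastp 0.20.1, aligned them to GRCm38 with HISAT2 2.2.1 and deposited raw counts per gene from featureCounts 2.0.1; the annotation is not given in the sources used here. Poly(A)-primed amplification and whole-gene counting without strand limit what a ratio shows. Tables of the authors' own comparisons were deposited too and were not used. Of 46959 entries, 128 under 2 repeated names were left out because their genes could not be told apart (at most 0.390% of a library).

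Counts were tested with edgeR 4.0.16 (R 4.3.3), quasi-likelihood F test, TMM scaling and its default filter on low counts, with the replicate number as a block. By the study's account, each batch of sorted cells served both m6A profiling and RNA-seq in equal portions; that the replicate number marks this division is inferred, and Xist and Ddx3y went with the number. Over genes, the replicate difference of the IP correlated with that of the input at r = 0.0997. P values rest on 2 pairs, with 1 residual degree of freedom per gene and spread shared across genes. SE is the log2 ratio divided by the square root of F, adjusted p is Benjamini-Hochberg over all genes tested, and pair ratios use log2 CPM with a prior count of 2.

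Named genes were the 12 protein-coding genes with the highest and the 12 with the lowest ratio among calls with a mean count of at least 100, the same sign in both pairs and over 10 counts in each library of the low side, the best-counted genes with at most 3 counts on one side, up to 4 genes per list and all members of the short lists. The members and lists were chosen with earlier results of these data known. Differences between populations were tested as interactions over 8 libraries. Transcript features were taken from GENCODE vM21, which held a coding transcript for 12993 of 15780 tested genes. For each gene the transcript with the longest coding sequence was used, with transcripts marked as incomplete taken last. The paired fit, the fit with pooled spread and the interaction of SSC with BCSP were run on simulated counts with known changes. The simulated spread between replicates was set below that of the main fit. DESeq2 and the fits without the block were not simulated. How many true differences the interactions would find at the spread of these data was not tested.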

Additional observations from a re-analysis of the deposited data

How the results depend on the processing

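Leaving out the replicate block gave 1640 enriched and 2195 depleted genes, of which 1373 and 1820 were also called with the pairing. It gave 0 differences between SSC and pre-BCSP, BCSP or SSC labelled Mettl3cko, as with the block. Requiring an adjusted p below 0.05 left 937 and 1307 calls, and a log2 limit of 2 left 291 and 813. Leaving out a pair or a library moved enriched calls between 783 and 2835 and depleted calls between 1007 and 4769; the lowest counts were without input replicate 1 and the highest without IP replicate 1. Without a pair, the spread came from the fit over all WT libraries. With 3 libraries the test has 1 residual degree of freedom, and in a group left with 1 library the spread is assumed to be like that of the other group. With spread pooled over 32 WT libraries, 4915 genes passed an adjusted p below 0.05 in SSC, against 2451 in the 4 libraries alone and 2994 to 4136 without one of the pairs.

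Other scaling, filters, DESeq2 and the pooled fit kept the counts within 1.5 times. Over 180 named genes, 1388 of 1410 such values kept their call and 0 changed sign. With a library or pair left out, 108 of 1080 values lost the call and 2 changed sign: Xist was -0.41 without IP replicate 1 and up to 4.92 without input replicate 1, and Thy1 was -6.47 without pair 1 and 3.99 without pair 2. Medians near 0 turned in 1 pair: collagens (-0.22 in pair 2), cartilage and bone matrix (0.11 in pair 2), blood markers (-0.14 in pair 2) and muscle markers (1.30 in pair 1). Taking the median over coding transcripts set the length of enriched genes at 2659 bases in place of 3858. The length of all genes moved the same way, to 2182 in place of 2973. The cause of these changes was not tested. The depth of the low side limits every gene with at most 3 counts there.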
